A study of Mus musculus with 6 samples.

Results

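A set of 10 neuropeptide precursor genes other than those of CGRP was followed in bulk messenger RNA from mouse trigeminal ganglion: Tac1, Adcyap1, Gal, Sst, Nppb, Nts, Nmb, Penk, Cartpt and Npy. The genes were chosen by symbol, and 9 of the 10 had values among the 16415 genes of the deposited table; Npy was not analysed here. All 9 passed the filter on low values. The 6 libraries are all labelled wild type, 3 with the treatment NC-up and 3 with SETDB2-up. The labels neither spell out these names nor say how the treatments were given, and strain, sex, age and the number of animals are not stated there. The series title places SETDB2, KLF4, IDE and CGRP together in sensory neurons in migraine, and the comparison here asks what happened to the other sensory peptides in the same ganglia.

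Sensory neurons make neuropeptides as longer precursor proteins, which convertases and amidating enzymes cut and finish inside dense-core vesicles. The peptides are released from both the central and the peripheral ends of the axon and act on G-protein-coupled or guanylyl cyclase receptors. In the trigeminal ganglion, substance P and PACAP accompany CGRP in peptidergic nociceptors, while somatostatin, the natriuretic peptide of Nppb and neurotensin mark a small class of itch neurons.

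Sst and Cartpt, which did not pass the test, were the only genes of the set found with TGACGTCA, the full cAMP response element, in their promoters. The promoter sequences of these 2 are shown beside those of Tac1 and Nts, which rose in SETDB2-up libraries. Each is the stretch of 250 bases before the start site on the gene's own strand, 5′ to 3′, from RefSeq (build GRCm38.p6), and capitals mark TGACG, the core of the cAMP response element, TGAGTCA, an AP-1 site, and CACGTG, an E-box, on either strand. The Tac1 window is chr6:7554811-7555060 (plus strand) and the Nts window chr10:102490419-102490668 (minus strand). The Sst window is chr16:23890845-23891094 and the Cartpt window chr13:99900684-99900933 (both minus strand), and the start sites of these 2 lie inside the spans that the deposited table gives for the genes.
Tac1: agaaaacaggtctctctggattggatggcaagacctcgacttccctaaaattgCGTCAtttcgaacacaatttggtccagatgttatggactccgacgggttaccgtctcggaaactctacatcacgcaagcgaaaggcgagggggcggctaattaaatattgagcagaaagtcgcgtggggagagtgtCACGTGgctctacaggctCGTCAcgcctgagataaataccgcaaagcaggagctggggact
Nts: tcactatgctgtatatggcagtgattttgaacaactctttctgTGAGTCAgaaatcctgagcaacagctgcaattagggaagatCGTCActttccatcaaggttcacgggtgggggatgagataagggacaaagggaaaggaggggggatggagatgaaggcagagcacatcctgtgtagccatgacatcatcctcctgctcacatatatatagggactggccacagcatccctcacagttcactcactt
Sst: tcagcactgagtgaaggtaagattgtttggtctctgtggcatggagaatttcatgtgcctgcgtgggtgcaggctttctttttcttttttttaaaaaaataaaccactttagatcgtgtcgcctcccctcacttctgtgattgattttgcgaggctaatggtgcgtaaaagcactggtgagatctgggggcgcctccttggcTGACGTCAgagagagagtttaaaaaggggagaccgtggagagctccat
Cartpt: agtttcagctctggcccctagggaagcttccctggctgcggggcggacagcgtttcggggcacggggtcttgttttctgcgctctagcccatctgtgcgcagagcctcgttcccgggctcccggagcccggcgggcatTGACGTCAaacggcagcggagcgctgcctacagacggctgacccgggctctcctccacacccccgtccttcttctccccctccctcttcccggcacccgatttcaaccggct
The Tac1 window held TGACG at 197 and 43 bases and CACGTG at 61 bases before the start site. The Nts window held TGAGTCA at 207 and TGACG at 166 bases before it. Sst and Cartpt each carried the full palindrome TGACGTCA, which contains TGACG on both strands, at 48 and 112 bases before the start site. Among 32841 mouse promoter windows of the same length, 1.55% held TGACGTCA, 17.8% TGACG, 4.46% TGAGTCA and 6.02% CACGTG. Promoter windows were found for 9 of the 10 genes, all but Penk; 5 of these genes held TGACG, the fifth being Adcyap1. The core of Kruppel-like factor sites, CACCC, was in 52% of all windows and in those of 6 of the genes, Nts, Sst, Cartpt, Gal, Nppb and Npy, and was not found in that of Tac1. A match describes letters only and shows neither binding nor use.

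Values are read counts divided by the authors by a single factor per library (normalised reads). The whole reads behind them totalled 19334997 in the shallowest and 23501386 in the deepest library, of which the 9 precursors held between 4446 and 6016. None of the 9 overlaps another gene of the table. The label was checked on Setdb2 itself, at 69.9, 58.4 and 71.5 normalised reads in NC-up against 113, 97.6 and 104 in SETDB2-up (0.65 ± 0.19 on the log2 scale, SE; adjusted p = 0.0253 with limma); this call was lost after GC correction (0.49) and without NC-up library 2 (0.56), SETDB2-up library 1 (0.60), 2 (0.70) or 3 (0.66). All 15 analysed pan-neuronal markers, among them the sensory neuron genes Isl1, Pou4f1, Prph and Avil, had reads in both groups. SETDB2-up libraries 1 and 2 stood apart by liver transcripts: the 22 hepatocyte markers summed to 3811 and 8818 normalised reads there, against 156 in SETDB2-up library 3 and 92.9 to 115 in NC-up. The labels do not tie the libraries of a group to separate animals, and the p-values therefore reflect only the spread between these libraries.

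Among the 9 precursors the substance P precursor and the neurotensin precursor were higher in SETDB2-up, and the other 7 did not pass the test. Tac1 was 1.29-fold and Nts 2.52-fold higher. None fell. Across all 16387 genes tested, 7.71% were called higher and 8.71% lower, 16.4% in either direction (limma, adjusted p under 0.05), so 2 called of 9 is near the background of the whole table. After a correction for the GC content of transcripts Tac1 and Nts passed as well, where 2.17% of 15513 genes were called higher and 6.18% in either direction. The median log2 fold change of the 9 was -0.05, against 0.00 over all genes tested. In bulk tissue, fewer or more cells of a type cannot be told apart from less or more RNA per cell.

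**Figure D1:**
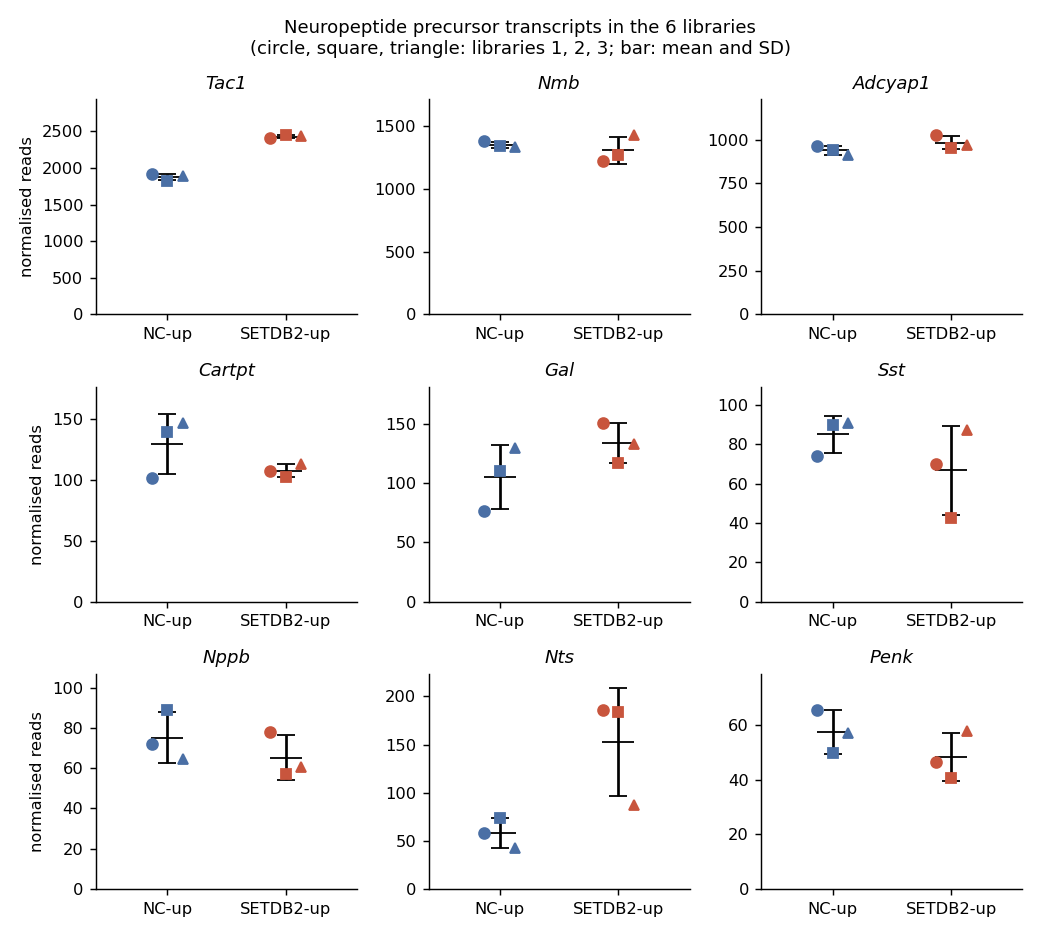
Normalised reads of the 9 precursor transcripts (y axes start at 0) in the 3 NC-up libraries (blue) and the 3 SETDB2-up libraries (red), with the mean and SD of each group. Tac1 lies between 1827 and 1916 in NC-up and between 2405 and 2445 in SETDB2-up, and Nts is the only other gene whose groups do not overlap.

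Tac1 (gene 21333, chromosome 6, 7555061 to 7562978, GRCm38, plus strand) encodes the precursor of substance P and neurokinin A, the tachykinins of peptidergic nociceptors. It had 1916, 1827 and 1884 normalised reads in NC-up libraries 1 to 3 and 2405, 2445 and 2433 in SETDB2-up libraries 1 to 3. The groups were far apart and each was tight, with means of 1876 ± 45.1 and 2428 ± 20.3 (SD, n = 3 each). On the log2 scale the difference was 0.37 ± 0.06 (SE; 95% interval 0.25 to 0.50; limma adjusted p = 0.000384). All 17 alternative analyses kept the call, with log2 fold changes from 0.22 to 0.39 and adjusted p from 1.14e-07 to 0.0253. The lowest came after the GC correction (0.22, adjusted p = 0.0253). Without both libraries that hold liver transcripts, which leaves a single SETDB2-up library assumed to vary like the others, Tac1 stood at 0.37 (limma adjusted p = 0.0145). Markers of other tissue around the ganglion were lower in SETDB2-up: 7 of 14 fibroblast and meningeal markers fell, with sums of 35909 to 43488 in NC-up against 26910.2 to 34549.9 in SETDB2-up, and 8 of 10 muscle and keratinocyte markers fell, with sums of 285 to 830.4 against 186 to 231. Of 14 satellite glia and Schwann cell markers 5 fell and 1 rose, where 8.71% of all genes fell and 7.71% rose. The sums of that list were 422514 to 439459 in NC-up against 371943 to 426354 in SETDB2-up, which overlap. The part of all these markers in the Tac1 result was not tested.

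Adcyap1 (gene 11516, chromosome 17, 93198245 to 93206541), the precursor of PACAP, a vasodilator peptide studied in migraine, showed values that overlapped between the groups. It had 965, 942 and 913 normalised reads in NC-up against 1025, 953 and 970.0 in SETDB2-up. The log2 fold change was 0.06 ± 0.07 (SE; 95% interval -0.09 to 0.21; limma adjusted p = 0.592). Its transcript has a GC content of 42.8%, the same as that of Tac1 at this precision, and after GC correction it stood at -0.09. The ratio of Tac1 to Adcyap1 normalised reads within a library was 1.99, 1.94 and 2.06 in NC-up against 2.35, 2.57 and 2.51 in SETDB2-up, without overlap. Tac1 was also set against Calca, the alpha-CGRP gene, which itself rose by 0.26 ± 0.05 (log2, SE; adjusted p = 0.00335 with limma). That ratio was 0.234, 0.236 and 0.233 in NC-up against 0.257, 0.260 and 0.245 in SETDB2-up, a log2 difference of 0.12. In all, 5 such ratios were tested by an exact two-sided permutation test, and each gave p = 0.1 (0.1 adjusted over the 5), the smallest value that 3 against 3 libraries allow.

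Nmb (gene 68039, chromosome 7, 80902227 to 80905062) encodes neuromedin B, a bombesin-like peptide made by peptidergic sensory neurons. It had 1380.4, 1339 and 1336 normalised reads in NC-up against 1222, 1271 and 1426 in SETDB2-up. SETDB2-up libraries 1 and 2 lay below all NC-up libraries and library 3 above them, and the log2 fold change was -0.05 ± 0.07 (SE; 95% interval -0.20 to 0.10; limma adjusted p = 0.663). The ratio of Tac1 to Nmb lay between 1.36 and 1.41 in NC-up and between 1.71 and 1.97 in SETDB2-up, a log2 difference of 0.42 that met the same limit of p = 0.1 (exact permutation test). The ratios of Tac1 to Adcyap1 and to Nmb restate the higher Tac1 values and are not further evidence.

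Nts (gene 67405, chromosome 10, 102481756 to 102490418, minus strand) encodes the precursor of neurotensin and neuromedin N. It had 58.3, 73.7 and 42.0 normalised reads in NC-up against 186, 184 and 87.4 in SETDB2-up, from between 47 and 196 recovered reads per library. All 3 SETDB2-up values lay above all NC-up values, but SETDB2-up library 3 was nearer to the NC-up libraries than to libraries 1 and 2. The means were 58.0 ± 15.9 and 153 ± 56.4 (SD, n = 3 each), and the log2 fold change was 1.34 ± 0.26 (SE; 95% interval 0.78 to 1.89; limma adjusted p = 0.00213). Of all genes tested, 99.7% had a lower log2 fold change. Among the 9 precursors 2 had groups that did not overlap, against 33.3% of all genes tested.

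The highest Nts values were in the 2 libraries with liver transcripts. Between these 2 Nts was nearly the same, at 186 and 184, while the hepatocyte markers summed to 3811 and 8818. SETDB2-up libraries 1 and 2 were the highest both for Nts and for the 22 hepatocyte markers. Of the 14 that passed the filter 13 rose with limma, where 7.71% of all genes did (edgeR called 7 of the list, limma-voom 6 and DESeq2 15). Markers with no read in NC-up could pass the filter only through SETDB2-up, so the direction of their change was fixed in advance. Of the 22, 10 had no read in any NC-up library, Alb, the albumin gene, among them; Alb had 1673, 3769 and 11.6 normalised reads in SETDB2-up libraries 1 to 3. Without SETDB2-up libraries 1 and 2 the Nts log2 fold change was 0.62 and the call was lost (limma adjusted p = 0.524). Without SETDB2-up library 1 alone it was 1.15, without library 2 alone 1.16 and without library 3 alone 1.69, and each of these passed (limma adjusted p = 0.0361, 0.0177 and 2.98e-05). The part of liver transcripts in the Nts values was not tested.

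**Figure D2:**
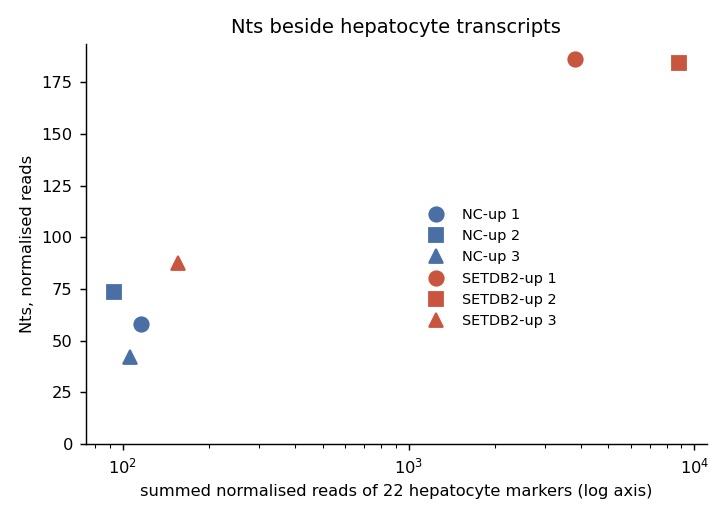
Normalised reads of Nts (y axis, from 0) against the summed normalised reads of 22 hepatocyte markers (x axis, log scale), a point for each of the 6 libraries. SETDB2-up libraries 1 and 2 lie at 186 and 184 for Nts with sums of 3811 and 8818, and SETDB2-up library 3 at 87.4 with a sum of 156, beside NC-up.

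Sst and Nppb, which share the itch neuron class with Nts in published atlases of sensory ganglia, did not pass the test. Sst (gene 20604, chromosome 16, 23889573 to 23891342), the precursor of the inhibitory peptide somatostatin, had 74.2, 90.0 and 91.2 normalised reads in NC-up against 70.3, 42.7 and 87.4 in SETDB2-up. SETDB2-up library 2 was the lowest and library 3 lay within the NC-up range, for a log2 fold change of -0.40 ± 0.24 (SE; 95% interval -0.91 to 0.11; limma adjusted p = 0.285). Nppb (gene 18158, chromosome 4, 147985786 to 147987205), whose natriuretic peptide relays itch to the spinal cord, had 72.0, 89.1 and 64.4 in NC-up against 77.9, 57.0 and 60.7 in SETDB2-up. Its groups overlapped, at a log2 fold change of -0.20 ± 0.22 (SE; 95% interval -0.66 to 0.26; limma adjusted p = 0.574).

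Within each library, Nts was the lower of the pair against Sst in NC-up, at ratios of 0.786, 0.819 and 0.461, and stood at 2.65, 4.31 and 1.0 in SETDB2-up. Against Nppb the ratios were 0.809, 0.828 and 0.653 in NC-up against 2.39, 3.23 and 1.44 in SETDB2-up. These ratios restate the higher Nts values, and the largest of both sets were those of the 2 libraries with liver transcripts. Of 9 other markers of this itch class, among them the interleukin-31 receptor Il31ra, the oncostatin receptor Osmr, the leukotriene receptor Cysltr2 and the serotonin receptor Htr1f, 0 passed the limma test; 2 had an unadjusted p under 0.05, and edgeR called 0, DESeq2 1 and limma-voom 2. Their median log2 fold change was 0.07 and their summed values ran from 11071 to 11371 in NC-up and from 11741 to 12437 in SETDB2-up. Most of that sum was Jak1, a kinase made by many cell types; without it the other 8 summed to 3619 to 3660.3 in NC-up against 3633 to 3765 in SETDB2-up, which overlap. Trpv1 is also a peptidergic nociceptor marker. The defining receptor Il31ra stood at 251, 196 and 271 normalised reads in NC-up against 234, 248 and 237 in SETDB2-up.

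Gal (gene 14419, chromosome 19, 3409915 to 3414544) encodes galanin, which sensory neurons raise strongly after axon injury. It had 76.3, 110.1 and 129.6 normalised reads in NC-up against 151, 117 and 133 in SETDB2-up. The groups overlapped, and the log2 fold change of 0.37 ± 0.19 (SE; 95% interval -0.04 to 0.77; limma adjusted p = 0.215) was as large as that of Tac1 but with a wider error. Without NC-up library 1, the lowest, it was 0.15. Of 12 measured nerve injury markers 2 fell, Jun (-0.35) and Tnfrsf12a (-0.42), and none rose, a share of 16.7% against 16.4% of all genes. The Tnfrsf12a call was lost after GC correction (-0.24) and without NC-up library 2 (-0.39) or 3 (-0.39) or SETDB2-up library 1 (-0.44) or 2 (-0.37). Tnfrsf12a overlaps Hcfc1r1 on the opposite strand, and without a stated strand setting their reads cannot be told apart. The injury factor Atf3 had 198, 177 and 194 normalised reads in NC-up against 213, 202 and 122 in SETDB2-up.

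Penk and Cartpt were the other 2 precursors with low counts. Penk (gene 18619, chromosome 4, 4133536 to 4138815), the source of the enkephalins, had 65.7, 49.8 and 57.2 normalised reads in NC-up against 46.5, 40.7 and 58.0 in SETDB2-up. SETDB2-up library 3 lay inside the NC-up range, and the log2 fold change was -0.25 ± 0.25 (SE; 95% interval -0.76 to 0.26; limma adjusted p = 0.525). Cartpt (gene 27220, chromosome 13, 99898483 to 99910179), the precursor of the CART peptides, had 102, 139.8 and 147 in NC-up against 107, 103 and 113 in SETDB2-up. All 3 SETDB2-up values were close together, near the lowest NC-up library, at a log2 fold change of -0.25 ± 0.18 (SE; 95% interval -0.62 to 0.12; limma adjusted p = 0.369). For these 5 low precursors that did not pass (Gal, Sst, Nppb, Penk and Cartpt), with 40 to 165 reads per library, the intervals were wide: a change as large as that of Tac1, in one direction or the other, lay inside each of them.

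**Figure D3:**
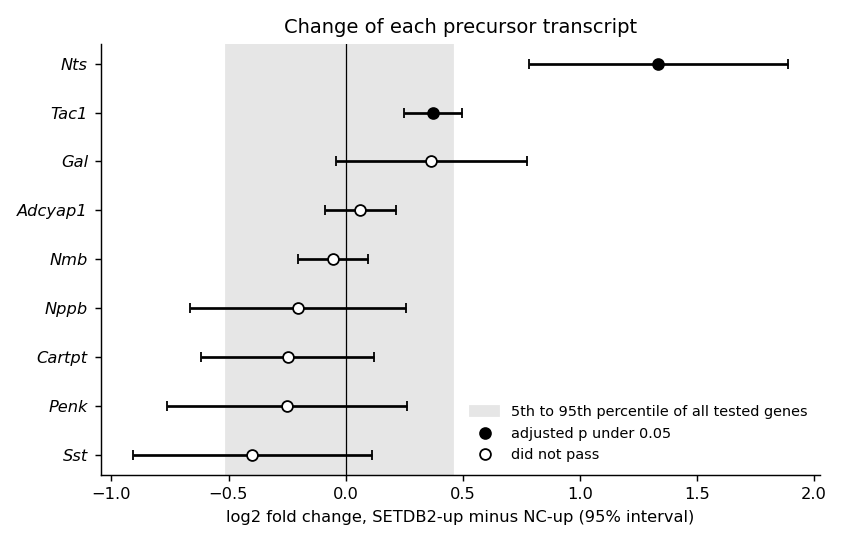
Log2 fold change of each precursor, SETDB2-up minus NC-up, with its 95% interval (limma); filled points passed an adjusted p of 0.05 and the grey band spans the 5th to 95th percentile of all tested genes, from -0.51 to 0.46. Nts at 1.34 lies outside the band, and Tac1 at 0.37 lies inside it with a narrow interval.

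Levels were then compared between the genes per kilobase of exon (GENCODE M21), which removes the effect of transcript length. In NC-up, Nmb was the highest at 1918 ± 35.1 normalised reads per kilobase, followed by Tac1 at 1525 ± 36.7 and Adcyap1 at 265 ± 7.43 (SD, n = 3 each), and neighbours in this order did not overlap. Gal (134 ± 34.2), Sst (118 ± 13.2), Cartpt (102 ± 19.2) and Nppb (96.2 ± 16.2) followed, with each overlapping the next, and Nts (46.5 ± 12.7) and Penk (39.7 ± 5.48) came last and overlapped too. In SETDB2-up, Tac1 at 1974 ± 16.5 per kilobase stood above Nmb at 1853 ± 151, in 2 of 3 libraries. Nts at 122 ± 45.2 held the fifth place, against the eighth in NC-up, its SETDB2-up libraries 1 and 2 being those with liver transcripts. Of the summed per-kilobase level of the 9 genes, Tac1 held 35.1% to 36.6% in NC-up against 40.9% to 43.2% in SETDB2-up, Nmb 44.6% to 46.0% and 37.4% to 41.8%, and Nts 0.793% to 1.40% and 1.45% to 3.22%. These shares are bound to each other, since they sum to the whole.

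The settings under which the 2 called genes were retested are drawn in the plot of alternative analyses.

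**Figure D4:**
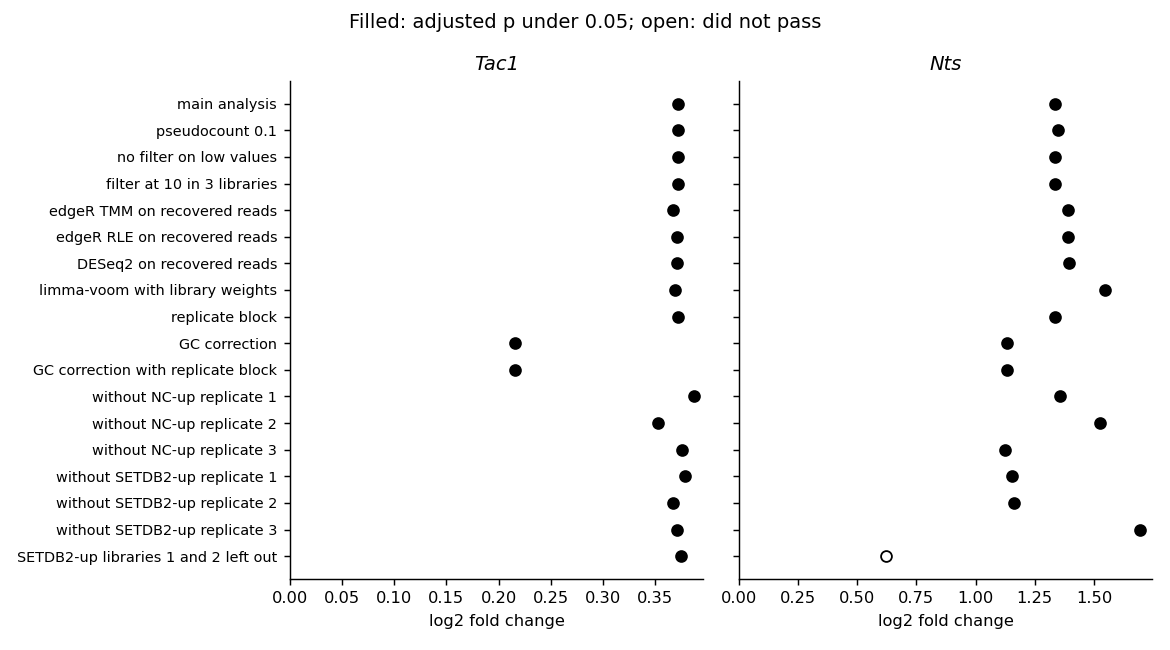
Log2 fold change of Tac1 (left) and Nts (right) in the main analysis and 17 alternatives, x axes from 0; filled points passed an adjusted p of 0.05. Tac1 runs from 0.22 to 0.39 and passes throughout, and Nts runs from 0.62 to 1.69 and does not pass once SETDB2-up libraries 1 and 2 are left out.

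Of 19 tested receptors of these peptides 1 rose and none fell, with 16.4% called among all genes and no test of that difference. The one that rose was Oprm1, the mu-opioid receptor at which enkephalins act, which overlaps Ipcef1 on the opposite strand, with 242, 369 and 267 normalised reads in NC-up against 419, 404 and 333 in SETDB2-up. Its groups overlapped, the difference was 0.41 ± 0.14 on the log2 scale (SE; adjusted p = 0.0485 with limma), and the call was lost in 9 of 17 alternatives. These include edgeR with TMM factors (0.39, adjusted p = 0.0572), GC correction (0.35) and leaving out NC-up library 1 (0.29), NC-up library 3 (0.36), SETDB2-up library 1 (0.35) or SETDB2-up library 2 (0.38). The most abundant others were the neurotensin-binding sorting receptor Sort1 (-0.12 ± 0.06 SE), the PACAP receptor Adcyap1r1 (-0.07 ± 0.12 SE) and the delta-opioid receptor Oprd1 (0.09 ± 0.11 SE), none past the threshold.

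Among 18 other measured neuropeptide precursors 2 rose and none fell, a share of 11.1% beside 16.4% of all genes. Calca is given above. Kng1, the kininogen gene, which liver expresses, had 0, 0 and 9.83 normalised reads in NC-up against 25.6, 82.4 and 2.68 in SETDB2-up. Kng1 followed the same 2 libraries as the hepatocyte markers (3.19 ± 1.03 SE on the log2 scale, adjusted p = 0.0410 with limma). Its call was lost with DESeq2 and after GC correction (3.11). It was also lost without NC-up library 1 (2.61) or 2 (2.61) and without SETDB2-up library 1 (2.98) or 2 (2.16). The beta-CGRP gene Calcb (-0.02 ± 0.07 SE), the angiotensinogen gene Agt (-0.10 ± 0.12 SE) and the nesfatin precursor Nucb2 (0.19 ± 0.16 SE) were the most abundant of the others and did not pass.

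Genes that make and store the peptides changed in both directions. Of 26 processing and dense-core vesicle genes 5 rose and 4 fell, a share of 34.6% against 16.4% of all genes, with a list median of 0.04. Pcsk1, the convertase PC1/3 that cuts peptide precursors, averaged 1332 ± 79.6 normalised reads in NC-up against 1844 ± 59.9 in SETDB2-up (SD, n = 3 each) and rose by 0.47 ± 0.07 (log2, SE; adjusted p = 0.000145 with limma). Pcsk1n, whose product proSAAS inhibits that convertase, averaged 17245 ± 914 against 12244 ± 1265 and fell (-0.50 ± 0.07 on the log2 scale, SE; adjusted p = 7.99e-05 with limma). Both calls held in all 17 alternatives. The vesicle genes Syt4 (0.30 ± 0.06 SE) and Scg3 (0.24 ± 0.05 SE) rose as well, but not after GC correction (0.11 and 0.16, limma adjusted p = 0.280 and 0.0532). With the library number added as a block to that correction, Scg3 passed and Syt4 did not. After GC correction alone 2 of the 26 were called, 1 in each direction, against 6.18% of all genes. The larger share of the list was not seen there. With the block added 8 of the 26 were called, 6 higher and 2 lower, where 1846 of 15513 genes were called. The list count was 4 without NC-up library 2 and 5 without SETDB2-up library 1. Cpe, the carboxypeptidase that trims the cut ends (-0.08 ± 0.06 SE), and the vesicle release genes Cadps (0.10 ± 0.06 SE) and Rab3a (-0.13 ± 0.06 SE) did not pass.

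Of 15 peptidases that degrade such peptides 1 rose and 2 fell, a share of 20% that is near the 16.4% of all genes. Ide, named in the series title, fell by 0.80 on the log2 scale (limma adjusted p = 1.91e-07). Lnpep, a membrane aminopeptidase, averaged 1446 ± 134 normalised reads in NC-up against 2242 ± 369 in SETDB2-up (SD, n = 3 each) and rose by 0.62 ± 0.10 (log2, SE; adjusted p = 0.000294 with limma). Its values of 2516, 2388 and 1822 in SETDB2-up libraries 1 to 3 were higher in the libraries with liver transcripts, and without these it stood at 0.34 (adjusted p = 0.0791); their part in the result was not tested. Ece1, the endothelin-converting enzyme, which also cuts substance P in endosomes, fell by 0.21 (limma adjusted p = 0.0335), a call lost without NC-up library 1 (-0.21) or 2 (-0.19), SETDB2-up library 1 (-0.16) or 2 (-0.23), and after GC correction (-0.11).

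**Figure D5:**
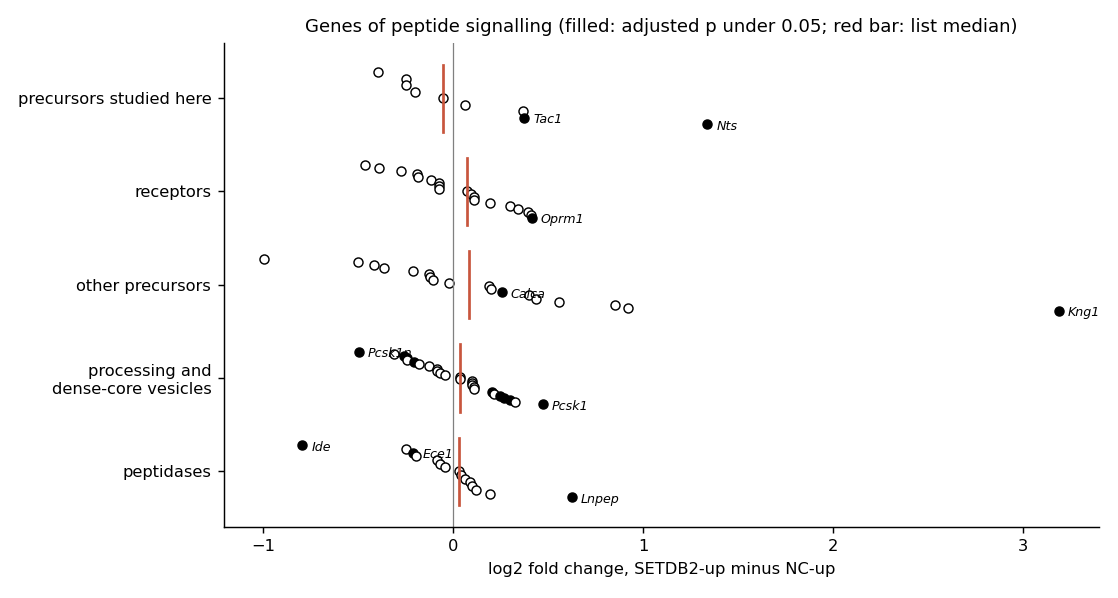
Log2 fold change of every tested gene in 5 lists of peptide signalling, a point per gene, with filled points past an adjusted p of 0.05 and the list median as a red bar; gene names are printed for some of the filled points only. Medians lie between -0.05 and 0.08, with Nts and Kng1 the highest called genes of their lists and Ide the lowest.

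Markers of the neuron classes that hold these peptides are given for the whole lists. Of 8 other peptidergic nociceptor markers 1 rose, Calca, and 1 fell, a share of 25% against 16.4% of all genes. The gene that fell was the adrenergic receptor Adra2a (-0.58). Its call was lost after GC correction (-0.39) and without NC-up library 2 (-0.53) or SETDB2-up library 2 (-0.52). The list sum without Calca was 12563, 13183 and 12814 in NC-up against 11611, 11574 and 13035 in SETDB2-up. With Calca it ran from 20766 to 20930.5 in NC-up and from 20967 to 22966 in SETDB2-up. Of 12 non-peptidergic nociceptor markers and 5 cold thermoreceptor markers 0 passed with limma, edgeR, DESeq2 or limma-voom, with medians of 0.09 and 0.06; 3 and 2 had an unadjusted limma p under 0.05. Myelinated mechanoreceptor markers had 4 of 12 higher, where 7.71% of all genes were, led by Spp1 (0.45), Ntrk2 (0.25) and Ntrk3 (0.35). The Ntrk3 call was lost with DESeq2 (0.37), after GC correction (0.21), without NC-up library 1 (0.31), 2 (0.40) or 3 (0.35), and without SETDB2-up library 1 (0.28) or 2 (0.23), and its value was -0.03 without both of the latter; the list sum was 107830.0 to 112323 in NC-up against 101576 to 112922 in SETDB2-up. Of 15 pan-neuronal markers 2 rose and 3 fell, a share of 33.3% against 16.4% of all genes. The first of these calls by p were Rbfox3 (-0.38), Pou4f1 (-0.28) and Slc17a6 (0.21). The Slc17a6 call was lost after GC correction (0.05) and without NC-up library 2 (0.21), SETDB2-up library 1 (0.19) or SETDB2-up library 2 (0.20). The part of these shifts in the Tac1 and Nts results was not tested. The sympathetic neuron list, which would accompany Npy, had 0 of 5 past the threshold with the same 4 tools, 1 with an unadjusted limma p under 0.05, and sums of 346 to 431 across the 6 libraries.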

How the data were processed

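Polyadenylated RNA of trigeminal ganglion was made into strand-specific libraries and sequenced as paired reads, per the labels' protocols; FastQC, HISAT2 and GRCm38 are named in the submitters' processing notes, without versions. Neither the read counter nor its strand setting, nor any filter on low genes, is stated in the labels or notes. The deposited signal is a read count that the authors divided by one factor per library: every value was a whole multiple of its library's step (100% whole, tolerance 0.001 read). As these values are normalised, the main test was limma 3.58.1 (R 4.3.3) with a mean-variance trend on log2(value + 1), over the 16387 genes that reached 1 in 3 or more libraries, with Benjamini-Hochberg adjustment over all of them and a threshold of 0.05. Fold changes are on the log2(value + 1) scale, which understates the change of low genes. Alternatives were a pseudocount of 0.1, no filter, a filter at 10, edgeR 4.0.16 (TMM, RLE) and DESeq2 1.42.0 on recovered reads, limma-voom with library weights, the library number as a block, a loess correction for transcript GC content (GENCODE M21, 94.7% of genes matched), and libraries left out. EdgeR with TMM factors called 2695 of all genes changed, against 2690 with limma. The fits were tested on simulated data, where limma and edgeR each recovered 56% of genes changed 1.25-fold, 88% at 1.5-fold and 100% at 2-fold. Each made 13 false calls. The simulated counts had the same spread setting for all genes, and neither a GC trend nor liver transcripts in single libraries. The test therefore does not show how the fits behave on these libraries. Chi-square tests of recovered reads between libraries of a group gave 3.97 to 9.93 per degree of freedom, so no library was a second sequencing of another. They do not show that the libraries came from separate animals or RNA.

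The precursors studied, the gene lists and the alternatives were chosen with earlier results of these data known. Named genes were all these precursors, Setdb2, and from each pathway list up to 4 genes past the threshold by p and up to 3 others by mean level. From each marker list up to 3 past the threshold could be named, but for several lists only counts or sums are given. Further genes are named as examples of a list, chosen after their values were seen. The lists held receptors, other precursors, processing and vesicle genes, peptidases, 8 sets of neuron markers and markers of other cells. Of those other cells, glia had 1 of 14 higher and 5 lower, the pituitary 1 of 4 lower, the brain 1 of 9 lower, fibroblasts and meninges 7 of 14 lower, endothelium and macrophages 1 of 14 lower, and muscle and keratinocytes 8 of 10 lower. Among neuron lists not given with the results, C low-threshold mechanoreceptors had 1 of 7 higher. Beside these counts, 7.71% of all genes tested were called higher and 8.71% lower.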

Additional observations from a re-analysis of the deposited data

How the results depend on the processing

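Of the 9 precursors 2 passed in 16 of 17 alternatives, and 1 (Tac1) passed with SETDB2-up libraries 1 and 2 left out; no alternative added a call. The log2 fold changes of some genes changed sign; of these only Ntrk3 had passed the test. After GC correction, with or without the replicate block, Adcyap1 stood at -0.0927, Nmb at 0.0402, Agt at 0.0292 and Dpp3 at 0.0676. With SETDB2-up libraries 1 and 2 left out, which leaves a lone library assumed to vary like the others, Sst stood at 0.0447, Nmb at 0.0771, Penk at 0.0196, Calcb at 0.0437, Agt at 0.0329, Nucb2 at -0.0212, Cpe at 0.0385, Dpp3 at 0.0357 and Ntrk3 at -0.0283. With single libraries left out, Adcyap1r1 ran from -0.170 to 0.0168, Calcb from -0.0578 to 0.0201, Agt from -0.174 to 0.0195 and Ece2 from -0.00848 to 0.123. The cause was not tested.

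All genes changed numbered 2690. There were 958 after GC correction (337 higher, 621 lower), 540 with SETDB2-up libraries 1 and 2 left out, and 1093 to 3333 with single libraries left out: 1093 without SETDB2-up library 1, 1573 without SETDB2-up library 2 and 1611 without NC-up library 2. Receptors called were 0 with edgeR (TMM, RLE), DESeq2, GC correction and those 2 libraries left out, and 0 to 1 without single libraries; 1 had an unadjusted p under 0.05 with limma. Other precursors called were 1 with the filter at 10, DESeq2 or GC correction, 3 with the 2 libraries left out, and 1 to 2 without single libraries. Processing genes called were 2 after GC correction, 4 with the 2 libraries left out and 4 to 10 without single libraries. Peptidases called were 1 with the 2 libraries left out and 2 to 4 without single libraries.

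The labels number libraries alike in both groups but state no pairing. Deviations of same-numbered libraries correlated by 0.0383, 0.0359 and 0.0484. Those of other pairs lay between -0.0347 and -0.00557, so each library correlated best with its own number. The main test used no pairing. With the replicate block all genes changed numbered 3618, with 3 other precursors, 12 processing genes and 4 peptidases, and of the 9 precursors Tac1 and Nts. With the block and the GC correction together they numbered 1846, with 1 receptor, 3 other precursors, 8 processing genes and 2 peptidases.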

Other observations

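A pair of other peptide precursors, named after their values were seen, had single libraries far above the rest. Vip, the precursor of vasoactive intestinal peptide, had 2.12, 0 and 12.5 normalised reads in NC-up libraries 1 to 3 and 0, 1.02 and 141 in SETDB2-up libraries 1 to 3. Pomc, the precursor of melanocortins and beta-endorphin, had 55.1, 30.6 and 83.1 in NC-up against 99.7, 29.5 and 286 in SETDB2-up, so that SETDB2-up library 3 was the highest for both. Neither passed the limma test (adjusted p = 0.694 and 0.270). The pituitary hormone gene Gh was highest in library 3 of each group as well, at 1211, 855 and 2401 normalised reads in NC-up against 796, 466 and 2729.7 in SETDB2-up, and Prl had 135, 87.2 and 356 against 98.8, 50.9 and 218. Tshb, the fourth measured pituitary marker, went otherwise, at 28.6, 28.7 and 29.5 in NC-up against 9.50, 15.3 and 8.92 in SETDB2-up. It was the only one of the 4 called (limma adjusted p = 0.0284), and that call was lost in 6 of 17 alternatives.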
